A study of Homo sapiens with 4 samples.

Results

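The genes described here are the classical cadherins and the catenins that bind them: 10 genes, taken by symbol from 58174 genes measured. They are the cadherins CDH3, CDH1, CDH2 and CDH24, the alpha-catenin gene CTNNA1 and its relative CTNNAL1, the beta-catenin gene CTNNB1 and the plakoglobin gene JUP, and the p120-catenin gene CTNND1 and its relative ARVCF. Each symbol matched 1 row, and CDH3 is the gene that the study silenced. Classical cadherins are single-pass adhesion receptors that bind the same cadherin on a neighbouring cell, and catenins are the cytoplasmic proteins that tie them to the actin cytoskeleton. The cadherin tail carries p120-catenin near the membrane, which keeps the receptor at the cell surface, and beta-catenin or plakoglobin further out. Alpha-catenin joins the beta-catenin or plakoglobin arm to actin. In epithelia E-cadherin (CDH1) is the main receptor and P-cadherin (CDH3) is found in basal layers and in many carcinomas. N-cadherin (CDH2) is typical of mesenchymal and neural cells.

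Total RNA was sequenced from HCC827 cells given siCDH3, HCC827 cells given siCTR, H1299 cells given siCDH3 and H1299 cells given siCTR, each 48 h into treatment. HCC827 is a human lung adenocarcinoma line that carries an activating deletion in EGFR, and H1299 is a human non-small cell lung carcinoma line that was derived from a nodal metastasis and lacks p53. siCDH3 is an siRNA against CDH3 and siCTR is the control siRNA, and neither sequence was used here. Each of the 4 groups had 1 library, so differences within a line rest on single libraries without a replicate check, and each line stands for itself only.

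Levels are in TPM, a transcript abundance that divides reads by transcript length and lets levels be compared between genes. TPM keeps no read depth, so counting error is unknown. Genes with at least 5 TPM numbered 10713 to 11329 per library. Mitochondrially encoded genes, rRNA genes included, took 34.4% and 36.2% of TPM in the siCDH3 and siCTR libraries of HCC827, against 16.4% and 13.5% in those of H1299. TPM has a fixed sum, so a larger mitochondrial share leaves less for other genes. All 8 epithelial markers (among them EPCAM and KRT19) reached 5 TPM in both HCC827 libraries, against 3 of 8 (KRT7, KRT8 and KRT18) in each H1299 library. KRT18 had 490 TPM in HCC827 siCTR and 345 TPM in H1299 siCTR. Of 5 mesenchymal markers, which include CDH2 itself, 2 (VIM and FN1) reached 5 TPM in each HCC827 library and 5 in each H1299 library. FN1 had 96.8 TPM in HCC827 siCTR and 119 TPM in H1299 siCTR. Of 6 lung epithelial markers, NKX2-1 and NAPSA reached 5 TPM in HCC827 and none did in H1299. Immune markers (5 genes) summed to 1.15 to 2.80 TPM per library, endothelial markers (5 genes) to 0.421 to 1.90 TPM and fibroblast markers (6 genes) to 3.85 to 5.92 TPM, mostly COL1A1 in HCC827. PTPRC, the defining immune marker, was listed at 0 in 3 libraries and had 0.0349 TPM in HCC827 siCTR. In bulk RNA, fewer cells that express a gene and less RNA per cell cannot be told apart.

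CDH3 (ENSG00000062038, chromosome 16), the silenced gene, was lower with siCDH3 than with siCTR in HCC827 and in H1299. In HCC827 it stood at 78.8 TPM with siCDH3 and 173 TPM with siCTR, so that 45.6% of the control level was left. In H1299 it stood at 0.169 TPM with siCDH3 and 1.21 TPM with siCTR. The control level of H1299 was already under 5 TPM, and the precision of so low a value is unknown. The antisense gene AC126773.2 covers 11.1% of CDH3 exon bases and had at most 0.886 TPM in any library. Whether reads were counted by strand is not given in the sources used here. By rank of TPM within a library, CDH3 was gene 1474 of 58174 in HCC827 siCDH3 and gene 526 in HCC827 siCTR.

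CDH1 (ENSG00000039068, chromosome 16) was abundant in HCC827 and near 0 in H1299. It had 439 TPM in HCC827 siCDH3 and 322 TPM in HCC827 siCTR, against 0.0345 TPM in H1299 siCDH3 and 0.0495 TPM in H1299 siCTR. CDH2 (ENSG00000170558, chromosome 18) lay the other way. It was listed at 0 in both HCC827 libraries and had 22.7 TPM in H1299 siCDH3 and 35.3 TPM in H1299 siCTR. CDH24 (ENSG00000139880, chromosome 14), a type II cadherin, was close to its control level in each line and higher in H1299. It had 11.1 TPM in HCC827 siCDH3, 12.1 TPM in HCC827 siCTR, 21.7 TPM in H1299 siCDH3 and 20.6 TPM in H1299 siCTR. The other 14 type I and type II cadherins summed to at most 1.47 TPM in any library.

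The catenins were present in both lines. CTNNA1 (ENSG00000044115, chromosome 5), which encodes alpha-catenin, had 163 TPM in HCC827 siCDH3 and 199 TPM in HCC827 siCTR, against 164 TPM in H1299 siCDH3 and 312 TPM in H1299 siCTR. CTNNAL1 (ENSG00000119326, chromosome 9) encodes alpha-catulin, a relative of alpha-catenin and vinculin. It had 42.0 TPM in HCC827 siCDH3 and 49.6 TPM in HCC827 siCTR, against 79.5 TPM in H1299 siCDH3 and 94.95 TPM in H1299 siCTR, and was higher in both H1299 libraries than in either of HCC827. CTNNB1 (ENSG00000168036, chromosome 3) encodes beta-catenin, which is also the transcriptional effector of Wnt signalling. It had 115 TPM in HCC827 siCDH3 and 116 TPM in HCC827 siCTR, against 60.6 TPM in H1299 siCDH3 and 83.0 TPM in H1299 siCTR.

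JUP (ENSG00000173801, chromosome 17) encodes plakoglobin, which takes the place of beta-catenin on the cadherin tail and also serves in desmosomes. It had 319 TPM in HCC827 siCDH3 and 326 TPM in HCC827 siCTR, against 24.4 TPM in H1299 siCDH3 and 24.5 TPM in H1299 siCTR. Its libraries were thus nearly identical within each line and far apart between lines. CTNND1 (ENSG00000198561, chromosome 11) encodes p120-catenin and was the member with the largest fold difference within a line, apart from CDH3 in H1299. It had 162 TPM in HCC827 siCDH3 and 67.9 TPM in HCC827 siCTR, against 23.3 TPM in H1299 siCDH3 and 82.2 TPM in H1299 siCTR. Its levels with siCTR were close in both lines, and with siCDH3 they lay to either side of these. ARVCF (ENSG00000099889, chromosome 22), a relative of p120-catenin, had 7.72 TPM in HCC827 siCDH3 and 7.27 TPM in HCC827 siCTR, against 18.6 TPM in H1299 siCDH3 and 18.9 TPM in H1299 siCTR.

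**Figure D1:**
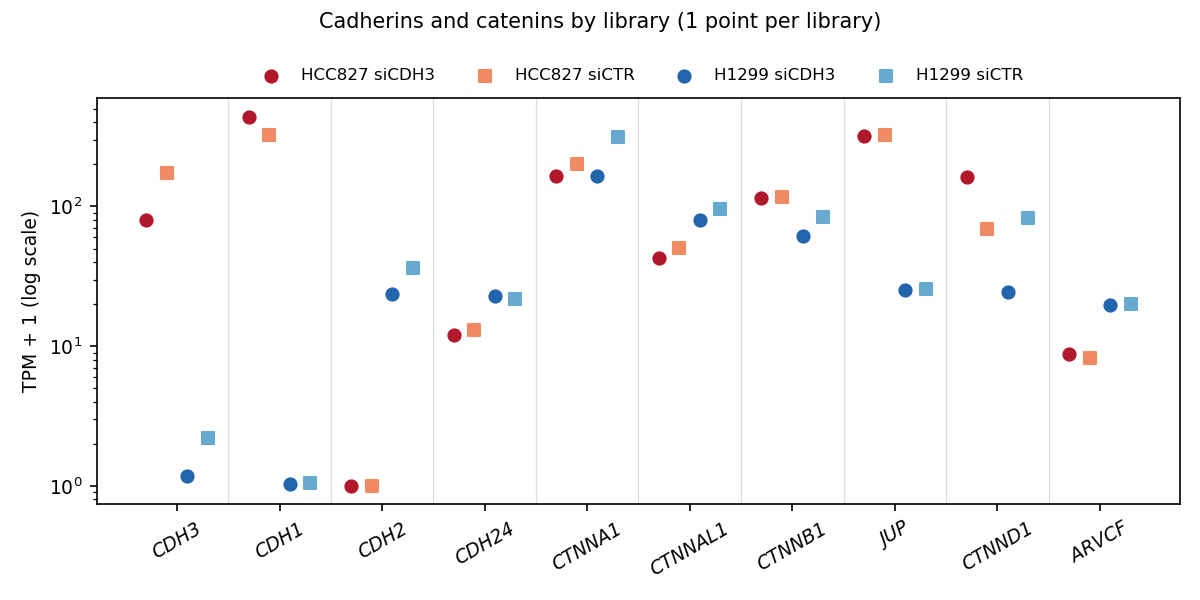
TPM + 1 on a log axis for the 10 genes, with 1 point per library and no error bars, since each group has 1 library. CDH1, CDH3 and JUP sit higher in both HCC827 libraries than in both H1299 libraries, CDH2 is listed at 0 in HCC827, and CTNND1 goes opposite ways with siCDH3 in HCC827 (162 against 67.9 TPM) and H1299 (23.3 against 82.2 TPM).

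Ordered by the mean of a line's libraries, levels in HCC827 ran from CDH1 (380 TPM) through JUP (323), CTNNA1 (181), CDH3 (126), CTNNB1 (115.2), CTNND1 (115.1), CTNNAL1 (45.8), CDH24 (11.6) and ARVCF (7.50) to CDH2, listed at 0. The range between the siCDH3 and siCTR library is the only spread within a line. By that range CDH1 overlapped JUP, CTNNA1 overlapped CDH3, CDH3 overlapped CTNNB1 and CTNNB1 overlapped CTNND1. No other neighbours in the order overlapped. In H1299 the order was CTNNA1 (238 TPM), CTNNAL1 (87.2), CTNNB1 (71.8), CTNND1 (52.7), CDH2 (29.0), JUP (24.5), CDH24 (21.2), ARVCF (18.8), CDH3 (0.687) and CDH1 (0.0420). There CTNNAL1, CTNNB1, CTNND1 and CDH2 each overlapped the next in order, so that CDH2 overlapped JUP. CTNNA1 stood above the rest, and from JUP downwards no gene overlapped the next. By mean level an alpha-catenin gene led the list in H1299, and a cadherin gene in HCC827. In HCC827 siCTR alone, JUP (326 TPM) stood above CDH1 (322 TPM).

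The make-up of cadherin mRNA in HCC827 differed between siCDH3 and siCTR, while the total hardly did. CDH1, CDH3, CDH2 and CDH24 summed to 529 TPM with siCDH3 and 507 TPM with siCTR. CDH3 made up 14.9% of that sum with siCDH3 and 34.1% with siCTR. CDH1 made up 83.0% with siCDH3 and 63.5% with siCTR, and the ratio of CDH1 to CDH3 was 5.57 with siCDH3 and 1.86 with siCTR. CDH3 is the silenced gene and part of the sum, so its lower level alone raises the share of CDH1 and this ratio. CDH1 itself was at 439 TPM with siCDH3 and 322 TPM with siCTR. CDH24 held 2.10% and 2.39% of the sum.

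In H1299 the same 4 genes summed to 44.6 TPM with siCDH3 and 57.2 TPM with siCTR. CDH2 made up 50.9% of the sum with siCDH3 and 61.7% with siCTR, and CDH24 made up 48.6% with siCDH3 and 36.1% with siCTR. CDH3 was 0.378% of the sum with siCDH3 and 2.11% with siCTR.

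Catenin mRNA was scarcer per cadherin mRNA in HCC827 than in H1299, where the cadherin sum was far smaller. The ratio does not mean fewer catenin transcripts in HCC827. Beta-catenin and plakoglobin mRNA together had 434 TPM in HCC827 siCDH3 and 442 TPM in HCC827 siCTR. In H1299 they had 85.0 TPM with siCDH3 and 107 TPM with siCTR. Alpha-catenin mRNA was not higher in HCC827, and the p120 family was higher there only with siCDH3. Beta-catenin and plakoglobin mRNA together came to 0.821 per cadherin mRNA in HCC827 siCDH3 and 0.873 in HCC827 siCTR, against 1.90 in H1299 siCDH3 and 1.88 in H1299 siCTR. Plakoglobin made up 73.6% of that pair in HCC827 siCDH3 and 73.8% in HCC827 siCTR, and 28.7% in H1299 siCDH3 and 22.8% in H1299 siCTR. Alpha-catenin mRNA came to 0.309 per cadherin mRNA in HCC827 siCDH3 and 0.393 in HCC827 siCTR, against 3.67 in H1299 siCDH3 and 5.46 in H1299 siCTR. The p120 family (CTNND1 and ARVCF) came to 0.322 per cadherin mRNA in HCC827 siCDH3 and 0.148 in HCC827 siCTR, against 0.939 in H1299 siCDH3 and 1.77 in H1299 siCTR. These are ratios of mRNA and not of protein. ARVCF was a small part of the p120 family except in H1299 siCDH3, where CTNND1 made up 55.5%, against 81.3% in H1299 siCTR.

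**Figure D2:**
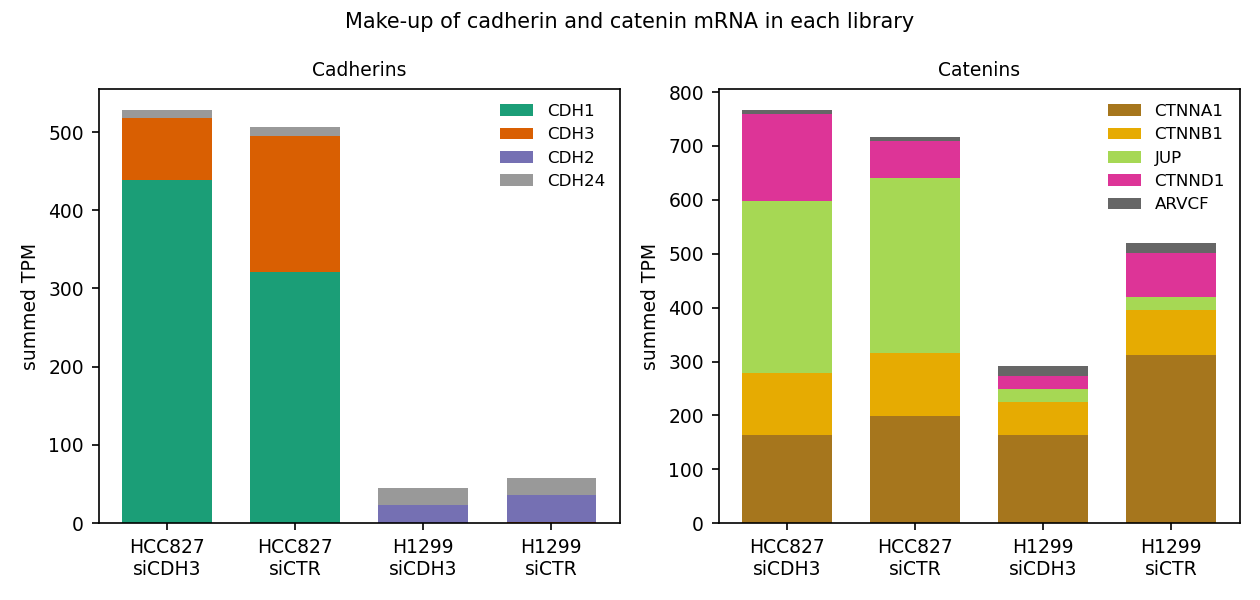
Summed TPM of 4 cadherin genes (left) and 5 catenin genes (right), stacked by gene, with 1 bar per library. In HCC827 the cadherin bars are of near equal height (529 TPM with siCDH3, 507 TPM with siCTR) but CDH3 is 14.9% of the siCDH3 bar and 34.1% of the siCTR bar, and in H1299 both cadherin bars are under 60 TPM.

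The siCDH3 and siCTR libraries were then compared within each line to ask which adherens junction genes differ once CDH3 is silenced. Ratios are log2 of TPM + 1, siCDH3 over siCTR, for genes with at least 5 TPM in 1 or both libraries of the line, and a gene was counted when it was at least 2-fold higher or lower on that scale.

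In HCC827, 9 of the 10 members passed the filter, all but CDH2. CTNND1 was higher by a log2 ratio of 1.24 (2.39-fold in TPM) and was the 1 member counted as higher. Of all 11043 genes, 1.01% were counted as higher, and 57 had a higher ratio than CTNND1. CDH3 itself had a log2 ratio of -1.12 and was the 1 member counted as lower, where 0.833% of all genes were. CDH1 had a log2 ratio of 0.45 (1.36-fold), under the size rule, and 630 genes had a higher ratio.

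CDH1 and the other 6 measured members of HCC827 lay within the central 90% of all genes, which spanned -0.41 to 0.48. CTNNA1 had a log2 ratio of -0.28, CTNNAL1 -0.23 and CDH24 -0.12. CTNNB1 was at -0.01, JUP at -0.03 and ARVCF at 0.08. The median of the 9 measured members was -0.03, beside 0.03 over all genes.

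In H1299, 8 of the 10 members passed the filter, all but CDH3 and CDH1. CTNND1 was lower by a log2 ratio of -1.78, 3.53-fold in TPM, and was the 1 member counted as lower, where 1.58% of all 11622 genes were. Only 39 genes had a lower ratio. None of the 8 was counted as higher, where 0.878% of all genes were. CTNNA1 came next at -0.92 (52.5% of the control level), short of the size rule, with 232 genes lower. CDH2 had a log2 ratio of -0.61 and CTNNB1 -0.45, both within the central 90% of all genes (-0.67 to 0.46).

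The remaining ratios in H1299 were -0.25 for CTNNAL1, 0.07 for CDH24, -0.01 for JUP and -0.02 for ARVCF. The median of the 8 was -0.35, beside -0.11 over all genes. Of the 8, 7 were below 0, but 64.8% of all genes were too, and 5 of the 8 were below the median of all genes. Relative to that median JUP and ARVCF were higher, by 0.10 and 0.09, so their direction depends on the scaling. With the median set to 0, counted genes of this line were 140 higher and 134 lower, beside 102 and 184 as deposited.

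**Figure D3:**
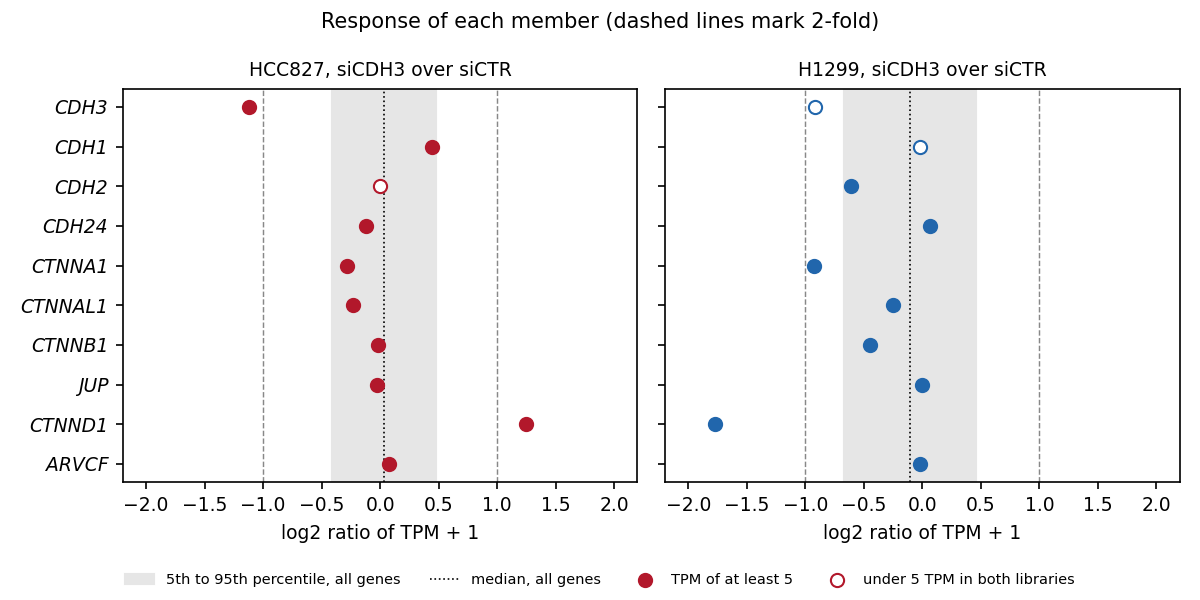
Log2 ratio of TPM + 1, siCDH3 over siCTR, for each member in HCC827 (left) and H1299 (right). Grey bands span the 5th to 95th percentile of all genes past the filter, dotted lines mark their median, dashed lines mark 2-fold and open circles are genes under 5 TPM in both libraries. CTNND1 lies past 2-fold to the right in HCC827 (1.24) and to the left in H1299 (-1.78).

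CTNND1 thus differed from siCTR in opposite directions in the 2 lines. Its log2 ratio in HCC827 minus that in H1299 was 3.02, and 12 of 9724 genes measured in both lines had a larger absolute difference. Genes past 2-fold in opposite directions numbered 14 of the 9724, or 0.144%, and CTNND1 was the only member among them. With 1 library per group the difference could not be tested. For CTNNA1 the same difference was 0.64 and for CTNNB1 it was 0.43, and both had ratios below 0 in each line (CTNNB1 only just so in HCC827, at -0.01).

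CTNND1 is also the member with overlapping genes on its own strand, so its reads could be split between genes in the counting. GENCODE release 29 lists 38 transcripts for it, and it shares 3.65% of its exon bases with the read-through gene TMX2-CTNND1 and 3.28% with AP001931.1, both on its strand. TMX2-CTNND1 had 0.748 TPM in H1299 siCTR and was listed at 0 in the other libraries, and AP001931.1 was under 0.1 TPM throughout. With these added to CTNND1 the log2 ratios were 1.24 in HCC827 and -1.79 in H1299. Of the 14 genes that went opposite ways, 5 (35.7%) share exon bases with another gene on their strand, as do 17.8% of the 9724. How the authors' counting divided the shared bases was not tested, and its gene models may differ from those of release 29.

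**Figure D4:**
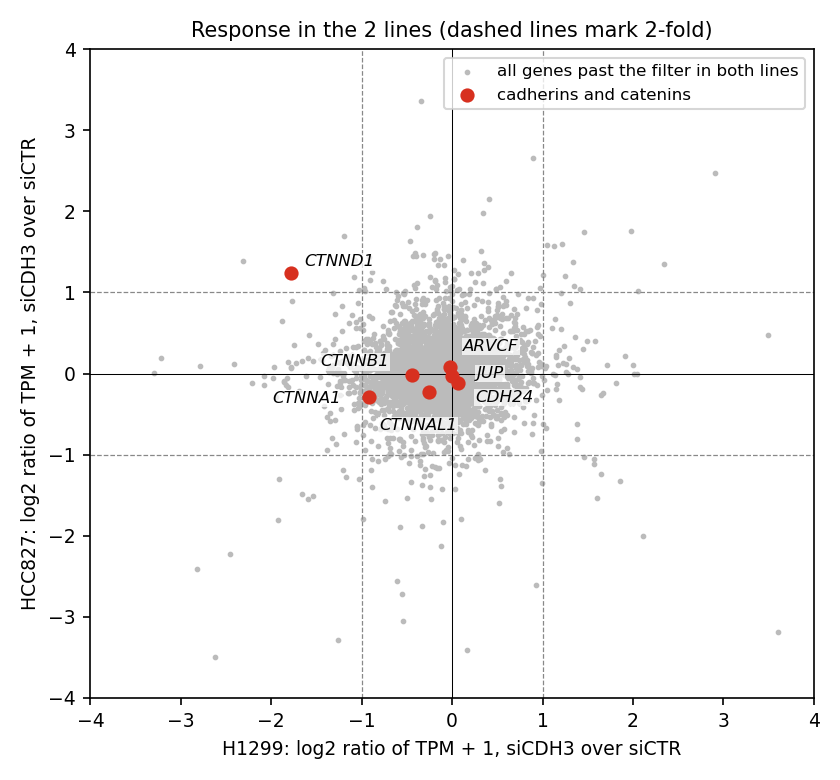
Each point is a gene that passed the filter in both lines, with the log2 ratio of TPM + 1 (siCDH3 over siCTR) in H1299 on the horizontal and in HCC827 on the vertical axis. Dashed lines mark 2-fold, 3 genes lie outside the axes, and red points are the 7 cadherin and catenin genes measured in both lines. CTNND1 stands alone of these in the upper left corner, at -1.78 in H1299 and 1.24 in HCC827.

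Taking the 2 lines as replicates, limma was fitted to log2(TPM + 1) of 12941 genes with the line as a block. No member passed a Benjamini-Hochberg adjusted p under 0.05, and 0.00773% of all genes did, which is 1 gene. At an unadjusted p under 0.05 there were 2 members, CDH3 and CTNNA1, and 581 genes. CDH3 had a log2 difference of -1.02 ± 0.16 (SE, n = 2 lines, limma adjusted p = 0.682), being lower in 2 of 2 lines, with the H1299 values under 5 TPM. CTNNA1 had -0.60 ± 0.21 (limma adjusted p = 0.950), also lower in 2 of 2 lines. CTNND1 had -0.27 ± 0.71 (limma adjusted p = 0.988), and was higher in 1 line and lower in the other.

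The lines themselves were compared to describe which adhesion genes each had without CDH3 silencing. With siCTR, CDH1, CDH3 and JUP were at least 2-fold higher in HCC827 than in H1299, where 13.5% of all 12601 genes were. JUP was 13.3-fold higher and CDH3 143-fold higher in TPM. CDH2 and ARVCF were at least 2-fold lower in HCC827, where 27.8% of all genes were. CDH1, CDH3 and CDH2 passed the filter only through the line where they were high. The filter thus favours a difference in them, and their count is no result.

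ARVCF was lower in HCC827 by a log2 ratio of -1.27. The median of all genes was -0.39 in this comparison, and relative to it ARVCF was at -0.87, JUP at 4.07 and CTNND1 at 0.12, where CTNND1 had been at -0.27. ARVCF was thus under 2-fold once the median was set to 0, as it was with a pseudocount of 5 (-0.96), and the direction of CTNND1 turned with the scaling. CDH24 was at -0.72, CTNNA1 at -0.65, CTNNAL1 at -0.92 and CTNNB1 at 0.48. With the median set to 0, 2418 genes were counted as higher and 2300 as lower, beside 1695 and 3500.

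The line term of the limma fit used the siCDH3 and siCTR library of each line as its 2 samples. Of the 10 members 8 passed an adjusted p under 0.05, as did 62.9% of all genes. The 8 include CDH1, CDH3 and CDH2, in which the filter favours a difference. Higher in HCC827 were 4 members (21.5% of all genes), CDH1, CDH3, JUP and CTNNB1, and lower were 4 (41.3%), CDH2, CDH24, CTNNAL1 and ARVCF. With each library centred on its median, calls over all genes were 3658 higher and 4449 lower, beside 2787 and 5351. JUP was higher by 3.67 ± 0.15 log2 units (SE, n = 2 libraries per line, limma adjusted p = 0.000102) and higher in both HCC827 libraries than in either H1299 library. ARVCF was lower by -1.22 ± 0.15 (limma adjusted p = 0.00236).

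Smaller line differences were CTNNAL1 at -0.91 ± 0.15 (limma adjusted p = 0.00577), CDH24 at -0.82 ± 0.16 (limma adjusted p = 0.00941) and CTNNB1 at 0.69 ± 0.18 (limma adjusted p = 0.0247). CTNNA1 (-0.33 ± 0.21, limma adjusted p = 0.233) and CTNND1 (1.24 ± 0.71, limma adjusted p = 0.188) did not pass. The direction of CTNNA1 turned with the scaling. It was at 0.07 with TPM over genes not mitochondrially encoded and at 0.06 with quantile normalization. CTNNB1 and CTNNAL1 lost their calls when HCC827 siCDH3 was left out (limma adjusted p = 0.161 and 0.0752) and when HCC827 siCTR was (0.168 and 0.0521), in fits without the siRNA term. CDH24 lost its call with TPM taken over genes not mitochondrially encoded (limma adjusted p = 0.0641).

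Promoter sequences are shown for the members that were past 2-fold between the lines and have an entry in the RefSeq promoter table (GRCh38.p14), so that the start regions of genes with unlike levels in HCC827 and H1299 can be read side by side. They are the 250 bases before the most upstream annotated start, read 5′ to 3′ on the gene's strand. Capitals mark the E-box CANNTG, which reads the same on both strands and is the core that ZEB, SNAI and TWIST repressors of cadherin genes bind, in ZEB and SNAI factors mostly as CACCTG or its reverse CAGGTG.
CDH2, chr18:28177131-28177380, minus strand: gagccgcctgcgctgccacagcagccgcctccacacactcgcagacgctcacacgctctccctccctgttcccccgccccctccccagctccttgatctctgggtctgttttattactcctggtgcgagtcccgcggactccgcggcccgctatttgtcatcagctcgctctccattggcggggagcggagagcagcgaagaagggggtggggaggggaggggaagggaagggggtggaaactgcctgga
JUP, chr17:41786712-41786961, minus strand: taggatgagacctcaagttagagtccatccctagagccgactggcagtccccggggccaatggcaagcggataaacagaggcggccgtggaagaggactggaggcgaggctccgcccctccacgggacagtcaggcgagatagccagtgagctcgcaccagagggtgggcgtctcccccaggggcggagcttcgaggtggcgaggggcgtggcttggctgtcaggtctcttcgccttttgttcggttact
ARVCF, chr22:19987197-19987446, minus strand: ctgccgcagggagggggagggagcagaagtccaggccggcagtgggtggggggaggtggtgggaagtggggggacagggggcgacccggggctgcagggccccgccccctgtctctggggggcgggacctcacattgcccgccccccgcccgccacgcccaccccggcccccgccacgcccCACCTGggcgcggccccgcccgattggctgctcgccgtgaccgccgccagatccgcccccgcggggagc

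The windows of CDH2 and JUP hold no CANNTG, and that of ARVCF holds 1, which is a CACCTG. Of 35116 RefSeq promoter windows of the same length, 61.8% hold a CANNTG and 17.5% hold CACCTG or CAGGTG on either strand. The share of G and C was 66.0% for CDH2, 63.6% for JUP and 80.0% for ARVCF, beside a median of 58.0% over all windows. CpG pairs numbered 17, 17 and 24 in that order, beside a median of 11. The letters describe these windows only. CDH1 and CDH3 are next to each other on chromosome 16 in the same orientation, with no protein-coding gene between them. In HCC827 both were highly expressed and in H1299 both were under 2 TPM.

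Levels of genes that act on cadherin transcription are given for the siCTR libraries as a description. Of 7 repressors, 5 passed the filter, and 4 of these (ZEB1, ZEB2, TWIST1 and SNAI1) did so only through the line where they were high. The filter thus favours a difference in them, and their count is no result. Over all genes 13.5% were counted as higher in HCC827 and 27.8% as lower. ZEB1, a repressor of CDH1, had 0.250 TPM in HCC827 siCTR and 34.7 TPM in H1299 siCTR, and TWIST1 was listed at 0 in HCC827 siCTR and had 36.0 TPM in H1299 siCTR. SNAI1 lay the other way, with 10.7 TPM in HCC827 siCTR and 1.97 TPM in H1299 siCTR. TCF3, the repressor with at least 5 TPM in both, had 32.2 TPM in HCC827 siCTR and 72.2 TPM in H1299 siCTR. Of 10 epithelial and cadherin gene activators, 8 passed, 5 of them (GRHL2, OVOL1, OVOL2, FOXA1 and ELF3) only through HCC827, with the same limit. ELF3 had 357 TPM in HCC827 siCTR and 0.327 TPM in H1299 siCTR. The 3 with at least 5 TPM in both were CEBPD and CEBPB, higher in HCC827 by log2 ratios of 3.21 and 2.85, and KLF4, at -0.38. Between siCDH3 and siCTR none of the repressors or activators that passed the filter differed by 2-fold in either line. Only 1.84% of all genes did so in HCC827 and 2.46% in H1299. ZEB1 was at 20.6 TPM in H1299 siCDH3 and 34.7 TPM in H1299 siCTR, a log2 ratio of -0.73.

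Partners of the cadherin-catenin complex were mostly within 2-fold of control after siCDH3, as were most genes. Of all genes 1.84% were past 2-fold in HCC827 and 2.46% in H1299, so low counts in short lists are no result about the lists. Of 17 nectins, afadin and actin linkers, 15 passed the filter in HCC827, where 1 was counted as higher and 0 as lower, with a list median of -0.07 beside 0.03 over all genes. That gene was VCL, which encodes vinculin, the actin linker recruited by alpha-catenin under tension. It had 58.1 TPM in HCC827 siCDH3 and 26.2 TPM in HCC827 siCTR, a log2 ratio of 1.12. In H1299, VCL lay on the other side of control, within 2-fold, with 142 TPM with siCDH3 and 187 TPM with siCTR. In H1299, 13 of the 17 passed and 0 were counted, with a median of -0.23 beside -0.11 over all genes, from AJUBA at -0.56 to NECTIN2 at 0.51.

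Of 11 genes of cadherin maturation, cleavage and turnover, 10 passed in HCC827 and 9 in H1299, and 0 were counted in either. Of all genes 1.84% were counted in HCC827 and 2.46% in H1299. The list medians were -0.04 and -0.07, beside 0.03 and -0.11 over all genes. CBLL1, which encodes the E-cadherin ubiquitin ligase Hakai, was closest in HCC827, with 7.42 TPM with siCDH3 and 14.8 TPM with siCTR (log2 ratio -0.91). MMP7, a protease that cleaves E-cadherin, had 20.2 TPM with siCDH3 and 11.2 TPM with siCTR (0.80). ADAM10, the main sheddase of E- and N-cadherin, was lower in both lines, with 21.1 and 27.7 TPM in HCC827 siCDH3 and siCTR, and 16.1 and 25.5 TPM in H1299 siCDH3 and siCTR.

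Of 11 kinases and phosphatases of the complex, 10 passed in each line and 0 were counted, beside 1.84% of all genes in HCC827 and 2.46% in H1299. The list median was -0.005 in HCC827, beside 0.03 over all genes, and -0.24 in H1299, beside -0.11. FYN, a Src-family kinase that phosphorylates catenins, had 26.6 TPM in H1299 siCDH3 and 38.9 TPM in H1299 siCTR. Of 4 other catenin family genes only PKP4 passed, with 54.0 and 57.95 TPM in HCC827 siCDH3 and siCTR and 59.1 and 63.5 TPM in H1299 siCDH3 and siCTR. Of the 14 other type I and II cadherins none passed. Among lung markers, NKX2-1 had 39.0 TPM in HCC827 siCDH3 and 19.7 TPM in HCC827 siCTR, a log2 ratio of 0.95, and NAPSA had 131 TPM in each.

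The protein-coding genes nearest to CDH3 by Euclidean distance of log2(TPM + 1) over the 4 libraries were CFI (distance 1.11), ANXA3 (1.12), TMEM45B (1.15), SRPX2 (1.29) and S100A14 (1.30). All were high in HCC827 and under 2 TPM in H1299. The genes were picked on these same values, so that likeness is no result. SRPX2 was also lower with siCDH3 in HCC827, with 51.1 TPM against 99.5 TPM with siCTR, whereas CFI had 94.1 TPM against 104 TPM and ANXA3 153 TPM against 155 TPM. Each gene has 4 values, from the same 4 libraries.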

How the data were processed

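The authors deposited TPM values for 58174 genes, 1 column per library and no pooling. hg19 is the build per the submitters' processing notes. For aligner, counting tool and strandedness: not given in the sources used here. TPM keeps no depth, so no counting intervals or detection limits were computed.

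Log2 ratios of TPM + 1 were taken for genes with at least 5 TPM in 1 or both libraries compared, and counted at 2-fold. The pseudocount of 1 understates differences of low genes. No test was made within a line. In R 4.3.3, limma 3.58.1 modelled log2(TPM + 1) of every gene with at least 5 TPM in any library, with terms for siRNA and line, and p-values were adjusted by Benjamini-Hochberg over all genes. Its steps were tested on simulated data. The line pairs the libraries, per the labels. Where nothing says that libraries came from separate cultures, p-values measure only the spread between these libraries.

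Gene identifiers matched GENCODE release 29 for 57836 of 58174 genes (99.4%), which was used for overlaps, transcripts and order of genes. The authors' counting may have used other gene models, so its overlaps may differ. Promoter windows came from RefSeq (GRCh38.p14), with 6 of the 10 members found. Besides the 10 genes, 13 comparison lists were described. From each at most the 2 highest and 2 lowest ratios were named, with any linker, regulator or marker on which a result turns, and for likeness to CDH3 the 5 nearest genes. The members and lists were chosen with earlier results of these data known. Alternatives changed the pseudocount, filter, scaling, fold rule, block and libraries used. The sum of CTNND1 with overlapping genes was added after seeing the data.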

Additional observations from a re-analysis of the deposited data

Results flagged for a closer look

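For 3 genes the siCDH3 library lay on one side of siCTR in HCC827 and on the other side in H1299. Which genes these are depends on the scaling: with the median of all genes set to 0, ARVCF was on the same side in both lines (0.047 in HCC827 and 0.087 in H1299) and JUP on opposite sides (-0.060 and 0.10), while CTNND1 and CDH24 stayed on opposite sides. With 1 library per group, none of these differences was tested. For CTNND1 the log2 ratio in HCC827 minus that in H1299 was 3.02, with 162 TPM against 67.9 TPM in HCC827 and 23.3 TPM against 82.2 TPM in H1299 (siCDH3 against siCTR). For CDH24 it was -0.19, and 5841 of 9724 genes had a larger absolute difference. For ARVCF it was 0.096, and 7612 genes had a larger one.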

How the results depend on the processing

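No member changed sign where it was counted or called, under any alternative run. With a 4-fold rule 0 members were counted as higher and 0 as lower in HCC827, and 0 as lower in H1299. With a 1.5-fold rule 3 were lower in H1299 (CTNND1, CTNNA1 and CDH2), where 826 of all 11622 genes were. Between the siCTR libraries 2 members were lower in HCC827. Only 1 was under a pseudocount of 5, a filter of 20 TPM, the median set to 0, TPM over genes not mitochondrially encoded, quantile normalization and the 4-fold rule. Under the 1.5-fold rule 5 members were lower, beside 5345 of all 12601 genes. Over all genes, counts in HCC827 and H1299 were 203 and 286, beside 99 and 138 with a pseudocount of 5, 373 and 536 with a filter of 1 TPM or none, 98 and 151 with 20 TPM, 650 and 1199 at 1.5-fold, and 33 and 38 at 4-fold. In limma over both lines 0 members were called for siCDH3 under every alternative that kept all libraries, also with no replicate block. That fit and those without a library left out the line, so line differences entered their spread. With no block the SE of CDH3 was 3.26, beside 0.16 in the main fit. Without 1 library the CDH3 log2 difference ran from -4.17 to 2.13. These fits therefore cannot show whether the absence of calls holds. Between the lines, members kept the direction of their log2 difference when a library and the siRNA term were left out together. The exception was CTNNA1, at 0.14 without H1299 siCTR. All called genes numbered 8138 in the main fit. Fewer were called in each of the fits without a library and the term, and the drop was larger without an HCC827 library than without an H1299 library. The part of the library and that of the term were not separated. There CTNNB1 also lost its call with no filter (limma adjusted p = 0.0768). In those fits with 1 library on a side, that library is assumed to vary like the others. The depth of each library is unknown, and 1 library per group limits every difference within a line.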
